A study of Homo sapiens with 90 samples.

Results

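HepaRG cells exposed to 2,4-D at 3 µM for 24 h were compared with HepaRG cells that received the DMSO vehicle alone. HepaRG is an established human liver line that gives hepatocyte-like and biliary-like cells in culture, and 2,4-D (2,4-dichlorophenoxyacetic acid) is a chlorophenoxy herbicide. The comparison took the 3 arrays of 2,4-D at 3 µM and the 3 common DMSO arrays normalized together with the 2,4-D samples, so 6 of the 90 deposited columns. Every treated and control culture carried 0.2% DMSO and had the same 24 h exposure. Each group had 1 array of each of the 3 P codes in the sample descriptions. The supplement describes the replicates as independent batches of cells, and the P codes were taken to mark these. They are called batches 1, 2 and 3 here. The wider study exposed the cells to 9 concentrations of 2,4-D, fenbuconazole or imazalil between 0.001 and 10 µM, with the same DMSO arrays as the control of each chemical. Gene expression was measured on 3' microarrays, and all levels below are normalized log2 intensities on which a difference of 1 is a 2-fold change.

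Chlorophenoxy acids share a part of their structure with clofibric acid, a fibrate drug that activates PPARα, the nuclear receptor that switches on genes of fatty acid oxidation. Liver cells also carry CAR and PXR, receptors for foreign compounds that raise CYP2B6 and CYP3A4, and the aryl hydrocarbon receptor AHR, which raises CYP1A1 and CYP1A2. Organic anions such as 2,4-D enter and leave cells through transporters of the SLC22 and SLCO families. These pathways were examined gene by gene at 3 µM, the second highest concentration used.

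One control array stood apart before any comparison was made. For each array of the 2,4-D set, the difference from the mean of the other 9 arrays of its batch was taken for each gene. The SD of these differences over 19774 genes was 0.252 for the DMSO array of batch 2, rank 1 of 30 arrays, with 1146 genes more than 0.5 away. The 3 µM arrays had SDs of 0.144, 0.153 and 0.163, and the other DMSO arrays 0.160 and 0.162. The next arrays in the order were 2,4-D 10 µM in batch 3 at 0.220 and 2,4-D 0.03 µM in batch 3 at 0.214. For the genes and lists named below, a difference of 3 µM from DMSO that moved by more than 1.5 times without the DMSO array of batch 2 is therefore also given without it. The 6 arrays had pairwise correlations between 0.99035 and 0.9953. Precision is limited throughout by having 3 arrays in each group.

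**Figure D1:**
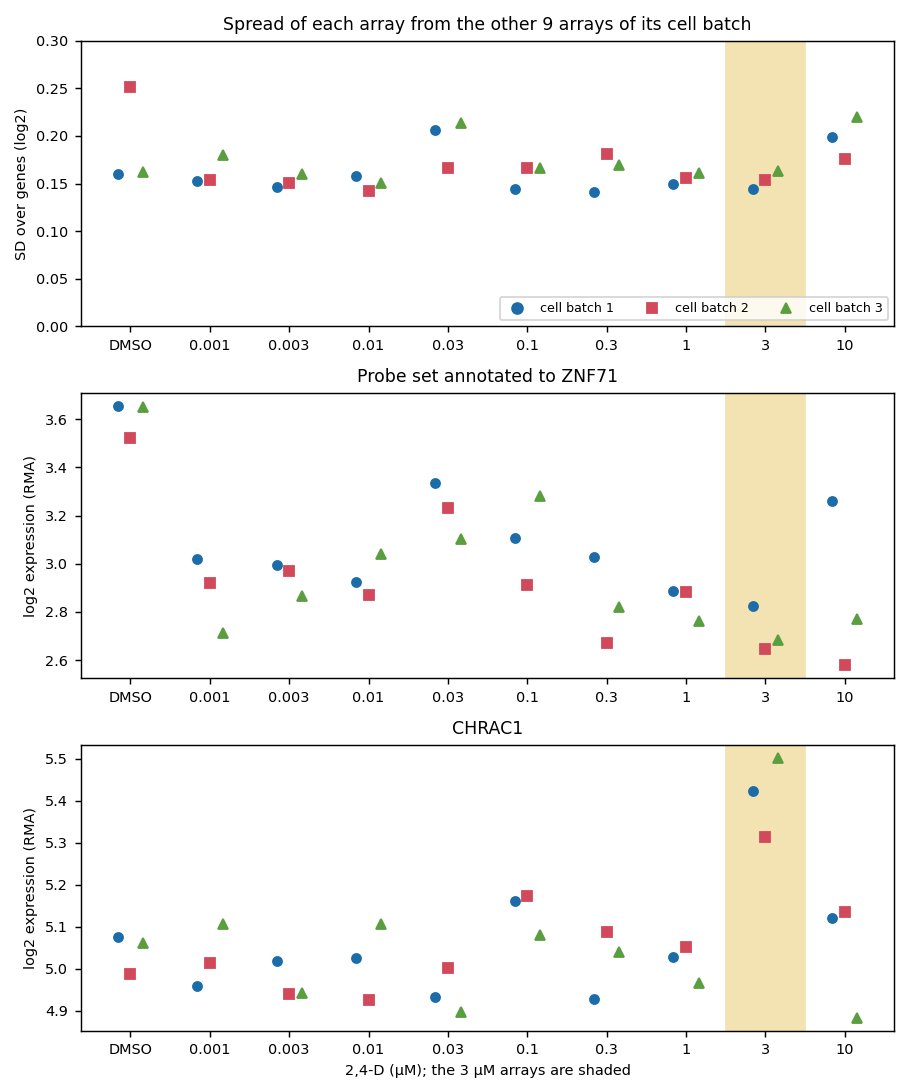
The horizontal axis of each panel gives DMSO and then the 2,4-D concentration in µM, with 3 µM shaded and markers by cell batch; the vertical axes give the SD over genes of each array's log2 difference from the other 9 arrays of its batch, the log2 level of the probe set annotated to ZNF71, and the log2 level of CHRAC1. The DMSO array of batch 2 has the highest SD at 0.252, the ZNF71 probe set is lower in all treated arrays than in DMSO, and CHRAC1 is high at 3 µM alone.

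No gene passed the test at 3 µM. With limma and Benjamini-Hochberg adjustment over 19774 genes, 0 genes (0%) were higher and 0 genes (0%) were lower than in DMSO at an adjusted p under 0.05, and the smallest adjusted p was 0.152. At an unadjusted p under 0.05 there were 1450 genes (7.33%), of which 778 (3.93%) were higher and 672 (3.40%) lower. Differences over all genes had a median of 0.0025 and an SD of 0.146, and their standard errors had a median of 0.117. The 95% interval of the difference lay within 0.5 of 0 for 17049 genes (86.2%) and within 1 for 19758 genes (99.9%). All 3 µM arrays lay above all DMSO arrays in 971 genes (4.91%) and below them in 1037 genes (5.24%). The difference was above 0 in all 3 batches for 3082 genes (15.6%) and below 0 for 2840 (14.4%).

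Most of the differences beyond 0.5 were furthest from 0 in batch 2. No gene differed by more than 1, and 79 genes differed by more than 0.5, 52 of them higher and 27 lower at 3 µM. Of these 79, the within-batch difference was furthest from 0 in batch 2 for 62 genes (78.5%), against 8910 of all genes (45.1%). Their difference, taken in its own direction, had a median of 0.875 in batch 2 and of 0.408 as the mean of batches 1 and 3. The 79 were chosen by a difference that includes batch 2. Over all genes, the mean of batches 1 and 3 was more than 0.5 from 0 for 83 genes, 23 of them among the 79. Without that DMSO array, 27 genes differed by more than 0.5, of which 14 were among the 79. Again 0 genes passed in limma (smallest adjusted p 0.474), with 721 genes (3.65%) at an unadjusted p under 0.05. Batch 2 carries 1 DMSO array, so the vehicle cells of that batch and the array itself cannot be told apart.

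NR1D2, which encodes the circadian repressor REV-ERBβ, had the highest difference. Its levels were 6.84, 6.31 and 6.27 in the 3 µM arrays, against 5.78, 5.22 and 5.97 in the DMSO arrays, in the order of batches 1, 2 and 3. The 3 µM arrays all lay above the DMSO arrays, as in 4.91% of all genes. The difference was 0.81 (SE 0.23, 95% interval 0.35 to 1.28, limma adjusted p = 0.512). It was 0.56 without the DMSO array of batch 2 and 0.13 against the 3 lowest 2,4-D concentrations. EML1, a microtubule-associated protein, was measured at 3.78, 4.15 and 4.09 in the 3 µM arrays, against 3.50, 2.39 and 3.80 in DMSO. Its low level in the DMSO array of batch 2 set most of its difference of 0.78, which was 0.31 without that array. CARNMT1, the carnosine methyltransferase, had the same pattern, with 6.49, 6.41 and 6.54 at 3 µM against 5.86, 5.16 and 6.25 in DMSO. Its difference of 0.73 was 0.37 without the array. MINDY4, named for a family of deubiquitinating enzymes, lay at the other end at -0.68. Its 3 µM arrays held 2.83, 2.46 and 2.46, against 2.97, 3.85 and 2.97 in DMSO, and the difference without the array was -0.35.

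The 7 genes with the smallest adjusted p of 0.152 in limma were all dim. Mean levels over the 30 arrays were 2.2 to 2.8, where the medians of the arrays over all probe sets were 2.88 to 2.97. LHX5, a LIM-homeobox transcription factor of the developing brain, had levels of 2.84, 2.79 and 2.82 in the 3 µM arrays, against 2.33, 2.43 and 2.44 in DMSO. OTOR, a secreted protein first described in the cochlea, had 2.71, 2.72 and 2.70 at 3 µM, against 2.24, 2.22 and 2.29 in DMSO. In both genes the 3 arrays of each group lay close together and the groups did not overlap. Both were taken for their small p, which favours such separation, and 4.91% of all genes lay above DMSO in this way. The others were MUSTN1 at 0.50, DLG2 at -0.52, GATA2-AS1 at -0.56, LYPD5 at -0.46 and TRPV2 at -0.56. No detection call was used here, so whether such levels are above background was not tested.

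Over all 54715 probe sets, 1 (0.00183%) passed in limma, and 4174 had an unadjusted p under 0.05. It is annotated to the zinc finger gene ZNF71. Its levels were 2.83, 2.64 and 2.68 in the 3 µM arrays, against 3.66, 3.52 and 3.65 in the DMSO arrays. The difference was -0.89 (SE 0.11, 95% interval -1.13 to -0.66, adjusted p = 0.00186). The DMSO arrays were the high ones: the 27 arrays of all 2,4-D concentrations held 2.58 to 3.33 with a median of 2.91, and the 54 fenbuconazole and imazalil arrays held 2.60 to 3.46 with a median of 3.00. By rising concentration, the differences from DMSO were -0.73, -0.67, -0.66, -0.39, -0.51, -0.77, -0.77, -0.89 and -0.74. Against the 3 lowest concentrations, which leave the DMSO arrays out, the difference at 3 µM was -0.21 and the adjusted p rounded to 1. The other ZNF71 probe sets differed by 0.09, 0.05 and -0.21 at 3 µM against DMSO and did not pass. The call was kept without the DMSO array of batch 2 (adjusted p = 0.0223 in limma) and was lost in the absence of any whole batch.

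Among the genes that respond to foreign compounds, those read out for CAR, PXR and AHR did not pass. CYP2B6, the main CAR-induced cytochrome P450, had levels of 4.45, 4.36 and 4.27 in the 3 µM arrays, against 4.10, 4.64 and 4.50 in DMSO. The 2 groups overlapped, with a difference of -0.05 (95% interval -0.33 to 0.23), or 0.07 without the DMSO array of batch 2. CYP3A4, the PXR-induced enzyme that oxidizes many drugs, had 10.00, 9.84 and 9.85 at 3 µM, against 10.10, 9.79 and 9.94 in DMSO. Its difference was -0.05 (95% interval -0.25 to 0.15), or -0.08 without that array. Other CYP3A4 probe sets differed by 0.14, -0.01 and -0.08. CYP1A1, the AHR-induced enzyme of aromatic hydrocarbon oxidation, had 3.34, 2.89 and 2.65 at 3 µM, against 2.92, 3.00 and 2.66 in DMSO. It was high at 3 µM in batch 1 alone, and the difference was 0.10 (95% interval -0.14 to 0.34), or 0.17 without the array. CYP1A2, a second AHR target, differed by -0.09 (95% interval -0.43 to 0.26), or by -0.23 without it. The probe sets of CYP3A4, CYP1A2 and CYP4A11 can also hybridize with related family members.

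The fixed genes of fatty acid oxidation did not pass either. CYP4A11, the fatty acid ω-hydroxylase and a PPARα target, had levels of 6.78, 7.12 and 6.95 in the 3 µM arrays, against 6.93, 6.81 and 6.84 in DMSO. It was higher in batches 2 and 3 and lower in batch 1, with a difference of 0.09 (95% interval -0.12 to 0.30), or 0.04 without the DMSO array of batch 2. Other CYP4A11 probe sets, with mean levels of 5.70 and 2.69, differed by -0.16 and 0.03. PDK4, which shifts fuel use away from glucose, had 8.47, 8.51 and 8.39 at 3 µM, against 8.43, 8.10 and 8.32 in DMSO. It was higher in all 3 batches and furthest in batch 2, with a difference of 0.17 (95% interval -0.05 to 0.40), or 0.06 without that array. CPT1A, which brings fatty acids into mitochondria, had 9.02, 8.89 and 8.83 at 3 µM, against 9.12, 8.97 and 9.03 in DMSO, a difference of -0.12 (95% interval -0.30 to 0.05). Of the other PPARα targets, the lipid droplet protein PLIN2 was at -0.05 (-0.02 without the array) and the lipase inhibitor ANGPTL4 at -0.09. A second ANGPTL4 probe set differed by 0.06.

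Of the remaining fixed genes, INHBE, a hepatokine of the activin family, varied more between batches than between the groups. Its levels were 7.35, 8.00 and 8.24 in the 3 µM arrays, against 7.39, 7.82 and 8.14 in DMSO, and the difference was 0.08. HMGCS1, an early enzyme of cholesterol synthesis, differed by -0.09 (95% interval -0.27 to 0.09). A second HMGCS1 probe set, with a mean level of 9.38, differed by 0.20. ALB, which encodes albumin and marks hepatocytes, had 13.25, 13.23 and 13.31 at 3 µM, against 13.18, 13.15 and 13.27 in DMSO. Its difference of 0.06 was 0.03 without the DMSO array of batch 2. The adjusted p was at least 0.762 in limma for each of the 12 genes in the plot of fixed genes.

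**Figure D2:**
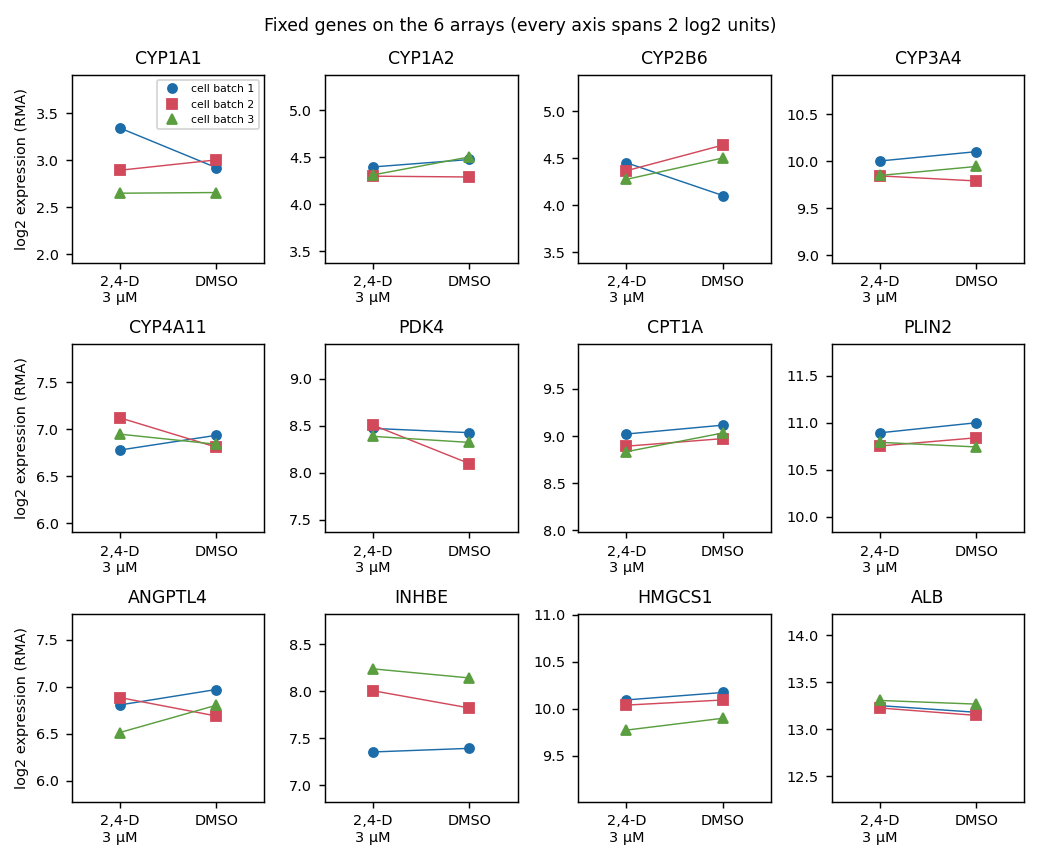
Each panel gives the log2 level of 1 gene (vertical axis, spanning 2 log2 units) in 2,4-D 3 µM and DMSO cells, with a line for each of the 3 cell batches. Lines cross or run nearly level in most panels, as for CYP2B6 with 4.45, 4.36 and 4.27 at 3 µM against 4.10, 4.64 and 4.50 in DMSO.

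No member of any of the 30 gene lists passed the test at 3 µM in limma, the background being 0% of all genes in each direction. The counts below are therefore of members at an unadjusted p under 0.05, which 7.33% of all genes had. Without the DMSO array of batch 2 that share was 3.65%, at which a list of this size can hold 0 members. The list of PPARα targets and fatty acid oxidation had 23 measured members with a median difference of 0.04, 14 of them above 0, where the median of all genes was 0.0025 and 50.8% lay above 0. Members at an unadjusted p under 0.05 were the peroxisomal enzyme EHHADH at 0.35, the hormone FGF21 at 0.27 and the peroxisome division factor PEX11A at 0.23. FGF21 was dim, with a mean level of 2.55 where the array medians were 2.88 to 2.97. EHHADH had levels of 9.11, 9.17 and 9.43 in the 3 µM arrays, against 8.84, 8.71 and 9.11 in DMSO. EHHADH was higher at 3 µM by 0.27, 0.46 and 0.32 within batches 1, 2 and 3. Across batches the groups nearly touched, as the lowest 3 µM array and the highest DMSO array both rounded to 9.11. Without the DMSO array of batch 2, the difference was 0.22 for EHHADH and 0.18 for FGF21, the list median was -0.01, and 0 members of the list reached an unadjusted p under 0.05 in limma.

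In the list of CAR and PXR targets, 16 genes were measured with a median of -0.04 (-0.01 without the DMSO array of batch 2), and 12 lay below 0. The only member at an unadjusted p under 0.05 was THRSP, a regulator of fat synthesis, at -0.21. The 10 AHR targets had a median of 0.02, with LRAT, which esterifies retinol, furthest from 0 at -0.25. Without that array their median was -0.03. The members at an unadjusted p under 0.05 in limma were then 2 and not 1, beside 3.65% of all genes. LRAT was dim, with a mean level of 2.31 where the array medians were 2.88 to 2.97. Of 20 genes of cholesterol synthesis and SREBP2 targets, 15 were below 0 with a median of -0.04, and ACAT2, which condenses acetyl-CoA, was at 0.25 (0.16 without the array, when 0 members reached an unadjusted p under 0.05 in limma). The 17 genes of fatty acid synthesis had a median of 0.00467, or 0.0102 without the array.

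Transporters that move organic anions and drugs had a median of -0.06 over 16 measured members. The bile salt export pump ABCB11 had levels of 2.59, 2.52 and 2.44 in the 3 µM arrays, against 3.06, 3.12 and 2.51 in DMSO. The difference of ABCB11 was -0.38 and rested on batches 1 and 2. A second ABCB11 probe set differed by -0.006. Both were dim, with mean levels of 2.79 and 2.57 where the array medians were 2.88 to 2.97. SLC22A6, an organic anion transporter that carries 2,4-D in the kidney, had 3.04, 3.12 and 3.05 at 3 µM, against 3.62, 3.55 and 2.79 in DMSO. The groups of SLC22A6 overlapped, and its difference of -0.25 was -0.09 without the DMSO array of batch 2. SLC22A9, a further liver member of the family, differed by -0.28, and by -0.14 without the array.

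Bile acid synthesis and transport was the list with most members at an unadjusted p under 0.05, 4 of 13 (30.8%), in both directions. Besides ABCB11, these were CYP7A1, the rate-limiting enzyme of bile acid synthesis, at 0.26, the steroid reductase AKR1D1 at 0.33, and FGF19, the hormone that represses CYP7A1, at -0.27. CYP7A1 had levels of 7.40, 8.04 and 8.21 in the 3 µM arrays, against 7.22, 7.65 and 8.00 in DMSO. It was higher by 0.18, 0.39 and 0.21 within batches 1, 2 and 3, less than the span between the batches of 1 group. Without the DMSO array of batch 2, the difference of CYP7A1 was 0.16. In that fit 0 of the 13 reached an unadjusted p under 0.05 in limma, where 3.65% of all genes did.

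Interferon response genes had a median of 0.11 over 13 measured members, with 11 above 0. With all arrays this was the highest of the list medians, followed by biliary epithelium markers at 0.0895. IFIT2, an antiviral protein, had levels of 5.93, 6.03 and 6.07 in the 3 µM arrays, against 5.78, 5.57 and 5.79 in DMSO. IFIT3, a partner of the same family, had 7.47, 7.33 and 7.41 at 3 µM, against 7.16, 6.98 and 7.22 in DMSO. In both genes the 3 µM arrays all lay above the DMSO arrays, as in 4.91% of all genes. The differences were 0.30 for IFIT2 and 0.28 for IFIT3. The second IFIT3 probe set differed by -0.13. Without the DMSO array of batch 2, the interferon median was 0.06, below that of biliary epithelium markers at 0.113. In that fit 0 interferon members reached an unadjusted p under 0.05 in limma, where 3.65% of all genes did.

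No member of the stress lists passed. The 15 NRF2 targets, genes of the oxidative stress defence, had 10 members above 0. GCLM, a subunit of the enzyme that starts glutathione synthesis, was at 0.24, or 0.13 without the DMSO array of batch 2. Other GCLM probe sets differed by 0.02 and 0.45. Heat shock genes, which encode protein chaperones, had a median of 0.07 over 9 members, or 0.04 without the array, with 8 above 0. Their mean level was 9.97, 9.93 and 9.92 in the 3 µM arrays, against 9.89, 9.82 and 9.92 in DMSO, and none had an unadjusted p under 0.05. MDM2, the ubiquitin ligase of p53, was at 0.26 and was the only one of 11 p53 targets at an unadjusted p under 0.05. Other MDM2 probe sets lay between -0.19 and 0.27. Without the array MDM2 was at 0.13. In that fit 0 members of the NRF2, heat shock and p53 lists reached an unadjusted p under 0.05 in limma, where 3.65% of all genes did. Among 10 glucocorticoid receptor targets, 9 were below 0 with a median of -0.04, or -0.06 without the array. IGFBP1, an insulin-repressed binding protein in the glucose control list, had levels of 7.40, 7.56 and 7.28 in the 3 µM arrays, against 7.58, 6.48 and 7.24 in DMSO. Its difference of 0.31 was 0.01 without the DMSO array of batch 2.

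No marker of hepatocytes, biliary cells or other liver cell types passed the test. The mean over 11 hepatocyte markers was 11.2 in each of the 6 arrays. The mean over biliary markers was 4.61, 4.71 and 4.61 in the 3 µM arrays, against 4.64, 4.64 and 4.51 in DMSO. Mesenchyme markers averaged 5.16 to 5.27 at 3 µM, against 5.15 to 5.26 in DMSO. Endothelium markers averaged 2.88 to 2.95 at 3 µM and 2.93 to 3.07 in DMSO, and immune markers 3.46 to 3.54 at 3 µM and 3.57 to 3.60 in DMSO. The immune marker means did not overlap between the groups, and nor did those of the interferon and heat shock lists. In every other gene list the means of the groups overlapped. Such separation is also seen without regard to list: of all genes, 5.24% lay below DMSO in this way and 4.91% above. PTPRC, the immune marker with the smallest p, had a mean level of 2.43, below the array medians of 2.88 to 2.97. Whether the immune markers were above background, and their part in other results, was not tested. In bulk arrays, fewer cells of a type and less RNA per cell cannot be told apart.

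**Figure D3:**
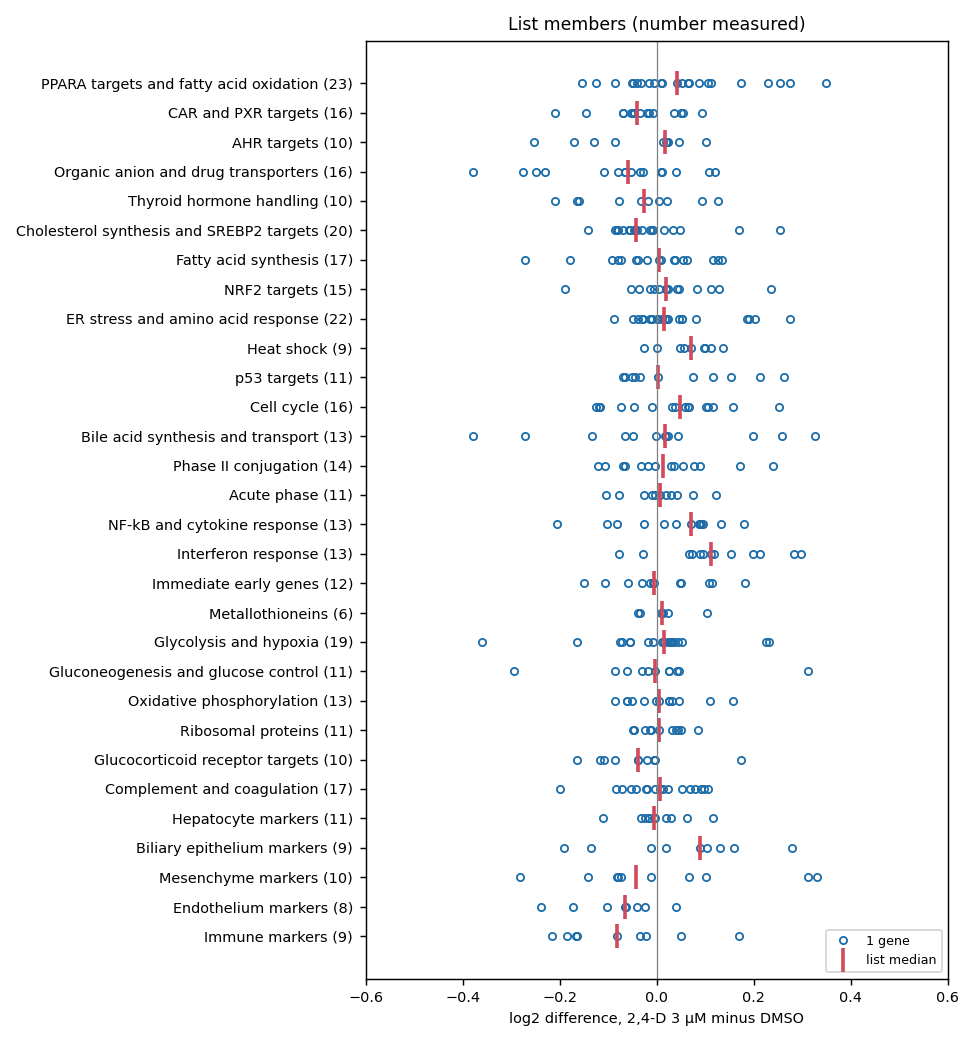
The horizontal axis gives the log2 difference of 2,4-D 3 µM minus DMSO, with a small point for each list member and a larger mark for the list median, and the vertical axis names the 30 gene lists. List medians lie between -0.083 for immune markers and 0.111 for interferon response, beside 0.0025 for all genes.

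Since no gene passed, the genes to be described were taken in order of unadjusted p among genes above the median level that moved the same way in all 3 batches, 10 in each direction. They are values that did not pass, with limma adjusted p of 0.25 to 0.55. E2F3, a transcription factor of the cell cycle, had levels of 5.76, 5.82 and 6.27 in the 3 µM arrays, against 5.30, 5.32 and 5.69 in DMSO, a difference of 0.51. MCC, a regulator of Wnt signalling, had 6.44, 6.57 and 6.41 at 3 µM, against 5.87, 5.40 and 6.15 in DMSO. The groups of MCC did not overlap, and its difference of 0.67 was 0.40 without the DMSO array of batch 2. TMEM170B, a membrane protein, had 5.55, 5.48 and 5.18 at 3 µM, against 5.16, 4.52 and 4.87 in DMSO. Its difference of 0.55 was 0.29 without that array. The other higher genes were CHRAC1 at 0.37, NVL at 0.46, KLHL28 at 0.41, ATF6B at 0.31, ZNF302 at 0.41, RTL10 at 0.44 and ARHGAP42 at 0.46.

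On the lower side, HOXB13, a homeobox transcription factor, had levels of 4.36, 4.08 and 3.90 in the 3 µM arrays, against 4.67, 4.88 and 4.60 in DMSO. TFAP2A-AS1, a transcript antisense to the TFAP2A gene, had 4.02, 4.26 and 3.93 at 3 µM, against 4.46, 4.66 and 4.75 in DMSO. MECR, an enzyme of mitochondrial fatty acid synthesis, had 6.24, 6.30 and 6.29 at 3 µM, against 6.57, 6.65 and 6.58 in DMSO. The 2 groups did not overlap in any of these genes. Both directions were chosen by p in this same comparison, which favours such separation. Of all genes, 5.24% lay below DMSO in this way and 4.91% above. The differences were -0.60 for HOXB13, -0.56 for TFAP2A-AS1 and -0.32 for MECR. The others were IQSEC2 at -0.43, MED15 at -0.43, CRB3 at -0.38, ST3GAL2 at -0.40, PIK3IP1 at -0.37, PCNT at -0.33 and EXOSC4 at -0.32.

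Other probe sets of the same genes and the other reference did not always follow. A second probe set differed by -0.21 for MCC, 0.12 for E2F3, -0.03 for RTL10 and -0.04 for HOXB13. The value was -0.09 for TFAP2A-AS1, -0.17 for IQSEC2 and -0.04 for PCNT. Further probe sets were at 0.03, -0.17 and 0.30 for KLHL28, 0.01 and -0.04 for ATF6B, and -0.19 and 0.15 for ZNF302. For ARHGAP42, ST3GAL2, PIK3IP1 and EXOSC4 they lay between -0.09 and 0.15. All these probe sets were dimmer, and each was nearer 0 or of opposite sign. Against the mean of the 3 lowest 2,4-D concentrations, only some of the 20 genes had an unadjusted p under 0.05 in limma. These were E2F3 at 0.20, CHRAC1 at 0.41, RTL10 at 0.21 and MED15 at -0.27.

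**Figure D4:**
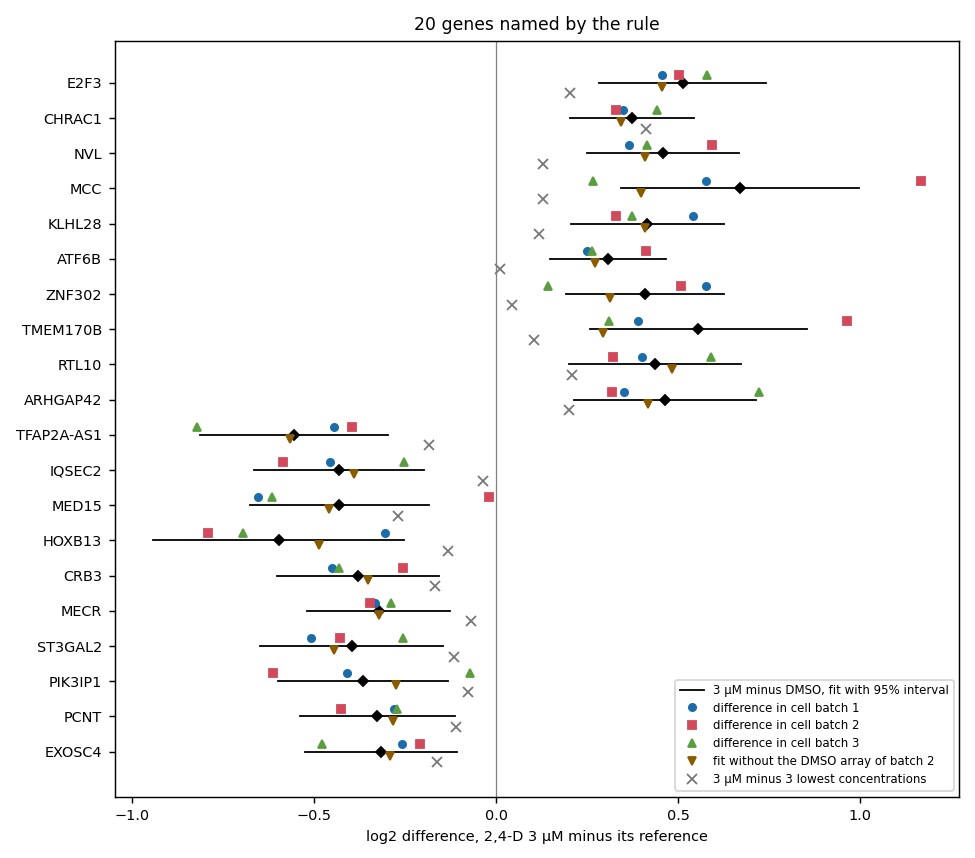
The horizontal axis gives the log2 difference of 2,4-D 3 µM minus its reference, and the vertical axis names the 10 higher and 10 lower genes; points with bars are the fit against DMSO with its 95% interval, and the other marks are the 3 batch differences, the fit without the DMSO array of batch 2, and the fit against the 3 lowest concentrations. Intervals exclude 0 by the way these genes were chosen, and against the 3 lowest concentrations many marks lie closer to 0, as for E2F3 with 0.20 beside 0.51.

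A reference that leaves the DMSO arrays out was made from the 9 arrays at 0.001, 0.003 and 0.01 µM. In batch 2, one code is given in the labels to both the 0.001 and the 0.003 µM array, yet their values differ (r = 0.99605), and each was used at its labelled concentration. At these concentrations the replicate number of the title is not always the P code, and the P code was the block. Against it 0 genes (0%) were higher and 0 (0%) lower at 3 µM in limma. There were 761 genes (3.85%) at an unadjusted p under 0.05, of which 374 (1.89%) were higher and 387 (1.96%) lower. CHRAC1, a histone-fold subunit of the CHRAC chromatin remodelling complex, came closest with a difference of 0.41 (SE 0.067, adjusted p = 0.0507 in limma). Its levels were 5.42, 5.31 and 5.50 in the 3 µM arrays, against 5.08, 4.99 and 5.06 in DMSO, and the 27 other arrays of the 2,4-D set held 4.88 to 5.17. By rising concentration, CHRAC1 differed from DMSO by -0.02, -0.07, -0.02, -0.10, 0.10, -0.02, -0.03, 0.37 and 0.01. It was thus high at 3 µM and at DMSO level at 10 µM, where the difference of 10 µM from 3 µM was -0.37 (adjusted p = 0.151 in limma). The gene has 1 probe set, and without the DMSO array of batch 2 its difference from DMSO was 0.34.

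Genes whose 3 arrays lay beyond all 27 other arrays of the set numbered 7 (0.0354%) at 3 µM, against 9 (0.0455%) in DMSO. The 7 were NQO2, TMEM120A, KANSL1, HAUS7, CHRAC1, BSN and LHX5. The same count was 71 (0.359%) at 10 µM and 39 (0.197%) at 0.03 µM. At the other concentrations it was 2 to 15, so the 3 µM arrays were not more distinct than most groups by this measure.

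Another 3 genes were close to the threshold against the 3 lowest concentrations. OTOR differed by 0.42 and LENG8 by 0.58, both with an adjusted p of 0.072 in limma. LENG8 had levels of 3.59, 3.59 and 3.28 in the 3 µM arrays, against 2.78, 3.09 and 3.00 in DMSO, and at 10 µM its difference from DMSO was -0.04. SLC25A51, the mitochondrial NAD carrier, differed by 0.67 from the 3 lowest concentrations (adjusted p = 0.137 in limma). Its levels were 4.49, 4.14 and 4.27 at 3 µM, against 4.05, 3.51 and 3.94 in DMSO, and at 10 µM its difference from DMSO was -0.09. In all 3 genes the 3 µM arrays lay above all DMSO arrays, as in 4.91% of all genes.

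The neighbouring concentrations share the DMSO arrays, so their values are given side by side and are not independent of those at 3 µM. At 1 µM, 0 genes (0%) in each direction passed in limma against DMSO, and 1687 (8.53%) had an unadjusted p under 0.05, 1018 (5.15%) higher and 669 (3.38%) lower. At 10 µM, 0 genes (0%) in each direction passed, with 1314 (6.65%) at an unadjusted p under 0.05, 619 (3.13%) higher and 695 (3.51%) lower. Over probe sets, 1 (0.00183%) passed at 1 µM and 3 (0.00548%) at 10 µM. PDK4 differed from DMSO by 0.37 at 1 µM, 0.17 at 3 µM and -0.03 at 10 µM. CYP4A11 differed by 0.03 at 1 µM, 0.09 at 3 µM and -0.31 at 10 µM. NR1D2 differed by 0.84 at 1 µM, 0.81 at 3 µM and 0.22 at 10 µM. Among 1, 3 and 10 µM alone, all 3 genes were lowest at 10 µM. PDK4 and NR1D2 were highest there at 1 µM, and CYP4A11 at 3 µM. Over the whole series the order was different, with PDK4 at -0.21 at 0.003 µM and CYP4A11 at 0.099 at 0.01 µM.

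CYP3A4 differed from DMSO by -0.26, -0.26, -0.13, -0.21, -0.28, -0.28, -0.05, -0.05 and 0.33 with rising concentration, so it was above DMSO at 10 µM alone. The test of 10 µM against 3 µM, which uses no DMSO array, gave 0.37 for CYP3A4 (adjusted p = 0.269 in limma). In that test 0 genes (0%) in each direction passed, 1480 (7.48%) had an unadjusted p under 0.05, and the smallest adjusted p was 0.0605. Of 16 CAR and PXR targets, 14 were higher at 10 µM than at 3 µM, 7 of them at an unadjusted p under 0.05, where 3.46% of all genes were. Of 13 interferon response genes, 12 were lower at 10 µM, 5 of them at an unadjusted p under 0.05, where 4.03% of all genes were. Genes nearest the threshold were the exonuclease ISG20 at -0.79, the bile acid and steroid transporter subunit SLC51A at -0.91, the oxygen sensor EGLN3 at -0.56, the urea cycle enzyme OTC at 0.52 and the sorting adaptor AP1M2 at 0.43.

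The 3 chemicals were then compared at the same 3 µM and 24 h. Fenbuconazole is a triazole fungicide and imazalil an imidazole fungicide. Each treated array was first set against the DMSO array of its batch as normalized with its own chemical, and these are the same physical DMSO arrays in each set. The test below is of 2,4-D minus the other chemical, over 2 pairs of chemicals.

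Against fenbuconazole, 0 genes (0%) were higher and 2 (0.0101%) lower in 2,4-D cells in limma, and 601 (3.04%) had an unadjusted p under 0.05. CYP2B6 differed from DMSO by 0.35, -0.27 and -0.23 in 2,4-D cells of batches 1, 2 and 3, against 2.01, 1.41 and 1.52 in fenbuconazole cells. The difference between the chemicals for CYP2B6 was -1.70 (SE 0.19, 95% interval -2.08 to -1.31, adjusted p = 5.33e-08 in limma). CYP3A4 differed from DMSO by a mean of -0.05 in 2,4-D cells, against 0.78, 0.70 and 0.51 in the 3 batches of fenbuconazole cells. The difference for CYP3A4 was -0.71 (95% interval -0.91 to -0.51, adjusted p = 1.49e-05 in limma). Its call was lost without batch 1 (adjusted p = 0.115) and without the block on the batch (adjusted p = 0.0784). CYP2A6 at -0.61, CYP3A7 at -0.41, HMGCS1 at -0.31 and CYP51A1, the sterol demethylase that azole fungicides bind, at -0.27 did not pass. The interval for CYP51A1 was -0.42 to -0.12. Of the 20 cholesterol genes, 10 were lower in 2,4-D than in fenbuconazole cells at an unadjusted p under 0.05.

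Against imazalil, 3 genes (0.0152%) were higher and 16 (0.0809%) lower in 2,4-D cells in limma, and 1765 (8.93%) had an unadjusted p under 0.05. CYP2B6 had a difference between the chemicals of -3.38, with 3.26, 3.17 and 3.55 above DMSO in the 3 batches of imazalil cells. CYP3A4 had a difference of -2.02, with 1.86, 2.22 and 1.84 above DMSO in imazalil cells. CYP1A1 had a difference of -1.63, with 2.30, 1.29 and 1.61 above DMSO in imazalil cells. Of the lists, 6 of 16 CAR and PXR targets and 3 of 10 AHR targets were past the threshold and lower in 2,4-D than in imazalil cells. Of those 3 AHR targets, CYP1A1 was called in 5 of 5 fits with and without the block and single batches, CYP1A2 in 2 and ALDH3A1 in 1.

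Further lower genes in 2,4-D than in imazalil cells were the cytochromes CYP3A7 at -1.60, CYP2A6 at -1.21, CYP2A7 at -1.06 and CYP1A2 at -0.96, and the pseudogene CYP2B7P at -1.36. ZSCAN25, a zinc finger gene that neighbours the CYP3A genes, was at -2.10. Outside the cytochromes, the glutathione peroxidase GPX2 was at -0.63, the drug efflux pump ABCB1 at -0.46, the P450 reductase POR at -0.44, the aldehyde dehydrogenase ALDH3A1 at -0.45, TSKU at -0.68, AP1M2 at -0.54 and DTX1 at -0.73. Genes of the CYP2A and CYP3A families, and CYP2B6 with CYP2B7P, are close in sequence, and their probe sets may share signal.

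The 3 genes that were higher in 2,4-D than in imazalil cells had different patterns against DMSO. ADH1A, an alcohol dehydrogenase, differed by 0.73 (adjusted p = 0.0023 in limma), with -0.08, 0.26 and 0.13 from DMSO in 2,4-D cells, against -0.77, -0.39 and -0.73 in imazalil cells. DPY19L2 differed by 0.75 (adjusted p = 0.013 in limma), with 0.53, 0.46 and 0.75 from DMSO in 2,4-D cells and a mean of -0.17 in imazalil cells. IGFBP1 differed by 0.95 (adjusted p = 0.026 in limma), with -0.18, 1.07 and 0.04 from DMSO in 2,4-D cells, against -0.74, -0.03 and -1.16 in imazalil cells. CYP4A11 was higher by 0.55 and did not pass (adjusted p = 0.051 in limma).

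The number of calls against imazalil changed with the batches used. It was 12 without the block on the batch, all among the 19. It was 16 without batch 1 with 13 shared, 39 without batch 2 with 13 shared, and 11 without batch 3, all shared. CYP3A4, CYP3A7, CYP2A6, CYP2A7, CYP2B6, CYP1A1, GPX2 and ZSCAN25 were called in each of these fits. Of 5 fits with the main one, TSKU and CYP2B7P were called in 4, and ABCB1, AP1M2, ADH1A and DPY19L2 in 3. CYP1A2, IGFBP1 and DTX1 were called in 2, and POR and ALDH3A1 in 1, the main fit.

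**Figure D5:**
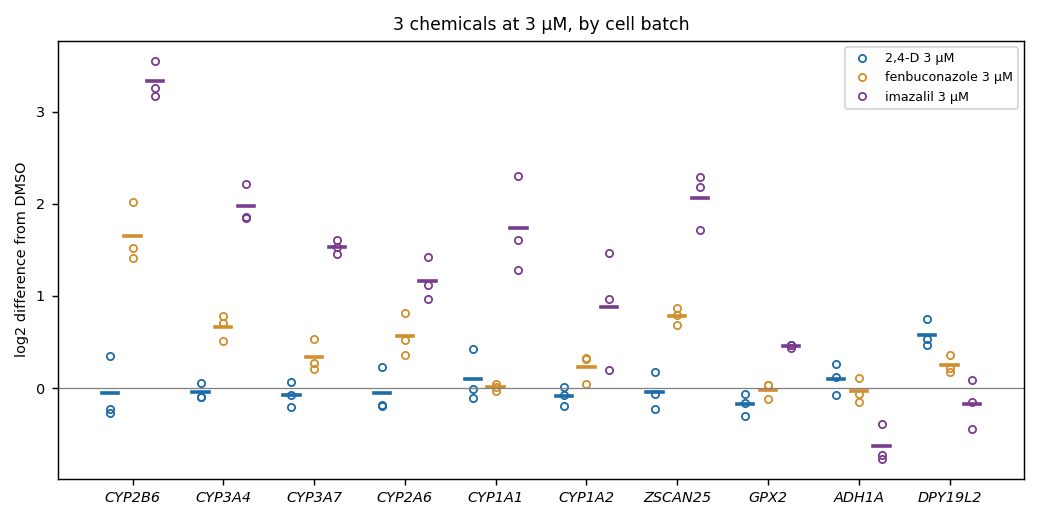
The vertical axis gives the log2 difference from the DMSO array of the same batch and the horizontal axis gives 10 genes, with 1 point per cell batch for 2,4-D, fenbuconazole and imazalil at 3 µM. The 2,4-D points of CYP2B6 lie between -0.27 and 0.35, below those of fenbuconazole (1.41 to 2.01) and imazalil (3.17 to 3.55).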

How the data were processed

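Total RNA of HepaRG cells was labelled and hybridized to Affymetrix HT HG-U133+ PM arrays. The authors deposited log2 intensities after RMA, run separately per chemical with the same 3 DMSO arrays each time. Partek is also named in the submitters' notes, without a version. All 90 columns were mapped to samples, and 0 were left unused.

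From the deposited log2 values, group means and the P code were fitted over the 30 arrays of the 2,4-D set with limma 3.58.1 (R 4.3.3, lmFit and eBayes), and contrasts were adjusted by Benjamini-Hochberg at 0.05. Each gene was represented by the brightest probe set with that symbol alone, 19774 in all. Of 54715 probe sets, 40920 had 1 symbol, 864 several and 12931 none. The chemicals were compared over 81 treated columns after subtraction of the DMSO array of the same P code and set.

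The supplement describes the replicates as independent batches of cells, and at 3 µM and in DMSO the title's replicate number equals the P code. Residuals correlated by 0.117 within and -0.0582 between P codes, and for 26 of 30 arrays the best match was within the code. The P code was therefore the block.

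Genes were named by rule: the 10 in each direction with the smallest unadjusted p among those above the median level with 1 sign in 3 batches, since none passed; the member of each list with the smallest p; and 12 fixed genes (a further one is not reported here). Genes with the largest differences or the smallest adjusted p were added after their values were seen. The comparison and the lists were chosen with earlier results of these data known. Alternatives were no replicate block, only the arrays compared, each array or batch left out, quantile normalization, subtraction of array medians, a filter on dim probe sets, a trended prior, array weights, the mean of a gene's probe sets, and 0.001 µM as the reference. The fitting code was tested on simulated data. Figures were drawn with matplotlib 3.10.9.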

Additional observations from a re-analysis of the deposited data

How the results depend on the processing

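Against DMSO, 0 genes passed in limma without each array or batch in turn, and no replicate block also gave 0 genes and 1 probe set. The mean of a gene's probe sets gave 1 gene (LHX5, adjusted p = 0.0410), and 0.001 µM as the reference gave 1 (LENG8 at 0.81, adjusted p = 0.0299). The probe set count was 0 with only the arrays compared, 0 with the 0.001 µM reference, and 0 to 3 without single arrays or batches, with 3 without DMSO replicate 1. Without the block, 10 µM and 1 µM against DMSO and 10 µM against 3 µM gave 0 genes each; these fits were added after seeing the data. Against the 3 lowest concentrations, the count was 2 without the block (CHRAC1, OTOR), 1 with only the arrays compared (SLC25A51), 1 after quantile normalization (CHRAC1), 1 with the filter on dim probe sets (CHRAC1) and 4 with array weights (CHRAC1, SLC25A51, LENG8, OTOR). Against fenbuconazole it was 1 without the block and 1 to 3 without a batch, with OTOR added without batch 3. Against imazalil it was 12 without the block and 11 to 39 without a batch.

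After subtraction of array medians, list medians were -0.0075 for CAR and PXR targets, 0.050 for AHR targets, 0.0073 for thyroid hormone handling, -0.0095 for cholesterol synthesis, 0.038 for fatty acid synthesis, 0.047 for ER stress, 0.036 for p53 targets, 0.046 for phase II conjugation, 0.040 for acute phase, -0.0051 for glucocorticoid receptor targets and 0.028 for hepatocyte markers. Subtracting array medians moves the difference of every gene by the same amount. Every list median and the median of all genes therefore shifted alike, also for lists not given here. Of 60 named genes, 14 changed sign in some setting and none of these had passed. ALB was -0.0091 after quantile normalization and CYP2B6 0.061 with array weights. With the mean of probe sets, BUB1 was -0.015, CYP3A4 0.0023, CYP4A11 -0.013 and HMGCS1 0.055. With the 0.001 µM reference, MT1F was -0.030, THY1 0.076, CYP1A2 0.14, CYP2B6 0.058, CYP3A4 0.21, CYP4A11 -0.0038, CPT1A 0.033, INHBE -0.094 and HMGCS1 0.0075. Without single arrays or batches, RPL4 ranged over -0.0015 to 0.18, CYP1A1 over -0.069 to 0.23, CYP1A2 over -0.23 to 0.040, CYP2B6 over -0.26 to 0.073, CYP4A11 over -0.025 to 0.21 and ANGPTL4 over -0.23 to 0.040. The cause of the sign changes was not tested, and the 3 arrays per group limit the precision of each value.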

Other observations

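Batches of cells differed in genes that did not pass between the groups. The 12 immediate early genes averaged 7.75, 6.72 and 6.76 in the 3 µM arrays of batches 1, 2 and 3, against 7.75, 6.71 and 6.75 in DMSO. IER3, an early response gene that guards against apoptosis, had levels of 8.72, 7.32 and 7.54 at 3 µM, against 8.80, 7.61 and 7.62 in DMSO. NF-kB and cytokine genes (13 measured) averaged 7.85, 7.14 and 7.16 at 3 µM, against 7.87, 7.03 and 7.15 in DMSO. Batch 1 was thus the high one in both groups, and the block on the batch takes this difference out of the comparison.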
